A study of Mus musculus with 11 samples.

Results

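The Nr4a family holds 3 genes, Nr4a1, Nr4a2 and Nr4a3, which encode the orphan nuclear receptors also called Nur77, Nurr1 and Nor1. The members were chosen by symbol in the table of RNA levels, and 3 of its 10992 genes matched. RNA was sequenced in bulk from regulatory T cells (Tregs), the Foxp3-expressing CD4 T cells that restrain immune responses, isolated by flow cytometry on CD3, CD4 and Foxp3. The cells were taken from visceral adipose tissue (VAT) or from the spleen of male mice 25 weeks old. Every mouse, control or not, carried the Foxp3 YFP-cre allele, which expresses the Cre recombinase and a yellow fluorescent marker in Foxp3+ cells. Srebf2, the gene of the sterol-sensing transcription factor SREBP2, was Srebf2-WT/WT in the group called WT and Srebf2-flox/flox, and so open to deletion in those cells, in the group called KO. Levels were available for 3 WT and 3 KO libraries from VAT and for 2 of each genotype from spleen. Nothing in the labels ties a library to a mouse of its own, and p-values therefore measure the spread between libraries, which may be technical.

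NR4A receptors have no known hormone that switches them on in the usual way; the cell controls them mainly through how much is made. Their genes are immediate early genes, transcribed within a short time of T cell receptor engagement through calcium, calcineurin, MEF2 and ERK signals, and also in response to cyclic AMP, growth factors and stress. In T cells Nr4a1 is widely used as a reporter of antigen receptor signalling, and in mice the family is needed for Treg development and for keeping Foxp3 expression. Nr4a1 and Nr4a2 can pair with the retinoid X receptor, whereas Nr4a3 is not known to.

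All 3 genes lie on different chromosomes of the mouse genome (mm10; RefSeq spans on GRCm38.p6, the same build). Nr4a1 (Entrez 15370) spans chr15:101253902-101274795, Nr4a2 (Entrez 18227) spans chr2:57106830-57124003 and Nr4a3 (Entrez 18124) spans chr4:48045078-48086447. No other RefSeq gene overlaps Nr4a1 or Nr4a3. The annotated LOC105244150 (chr2:57123334-57124694) overlaps the 5′ end of Nr4a2, and because the library kit does not mark the strand, reads from that stretch cannot be assigned to either gene.

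The promoter windows are shown because the 3 genes moved together between tissues, and because each carries the core of the cyclic AMP response element (CRE), the sequence bound by CREB. Each window runs from 250 bases before to 50 bases after an annotated RefSeq start and has 300 bases. They are chr15:101266596-101266895 (plus strand) for Nr4a1, chr2:57123954-57124253 (minus strand) for Nr4a2 and chr4:48045055-48045354 (plus strand) for Nr4a3, each read 5′ to 3′ along the gene. The whole Nr4a1 window and nearly all of the Nr4a3 window lie inside the gene spans given above. In these genes, bases before the start used can thus lie within the annotated gene. Capitals mark the CRE core TGACG on either strand (CGTCA when read on the other) and, in Nr4a2, a match to the MEF2 consensus.
Nr4a1: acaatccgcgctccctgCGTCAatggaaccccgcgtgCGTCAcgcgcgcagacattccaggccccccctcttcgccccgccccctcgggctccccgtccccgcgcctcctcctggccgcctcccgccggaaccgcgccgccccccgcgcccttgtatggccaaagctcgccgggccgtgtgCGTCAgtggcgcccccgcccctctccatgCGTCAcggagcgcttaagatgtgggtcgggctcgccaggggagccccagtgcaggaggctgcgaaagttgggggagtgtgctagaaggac
Nr4a2: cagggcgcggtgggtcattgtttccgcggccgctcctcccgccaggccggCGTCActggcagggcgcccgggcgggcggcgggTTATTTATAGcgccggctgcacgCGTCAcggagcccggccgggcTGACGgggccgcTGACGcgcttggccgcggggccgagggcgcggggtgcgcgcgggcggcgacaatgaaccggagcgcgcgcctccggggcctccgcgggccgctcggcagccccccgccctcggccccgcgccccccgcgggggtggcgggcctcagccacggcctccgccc
Nr4a3: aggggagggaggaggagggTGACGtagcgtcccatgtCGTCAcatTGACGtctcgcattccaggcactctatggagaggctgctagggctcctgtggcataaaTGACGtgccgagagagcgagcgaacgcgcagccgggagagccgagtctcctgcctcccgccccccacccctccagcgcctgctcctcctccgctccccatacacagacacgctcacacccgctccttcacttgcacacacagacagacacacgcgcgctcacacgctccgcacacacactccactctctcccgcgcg

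Each of the 3 windows held 4 CRE cores. Of 32851 windows of the same length in the RefSeq table, 20.8% held at least 1 core and 0.231%, or 76 windows, held at least 4. In Nr4a1 the cores began 233, 213, 69 and 40 bases before the start. In Nr4a2 they began at 200, 144, 123 and 111 bases before it, and in Nr4a3 at 231, 213, 205 and 147. The full palindrome TGACGTCA was in none of the 3 windows and in 1.79% of all windows. A single match to the MEF2 consensus began 167 bases before the start of Nr4a2, and 3.19% of all windows held such a match. The AP-1 site TGANTCA (7.81% of all windows) and the response element of the NR4A proteins themselves, AAAGGTCA (1.51%), were in none of the 3. All motifs were searched on both strands. The windows were rich in G and C, at 72.3% for Nr4a1, 81.7% for Nr4a2 and 64.7% for Nr4a3. The core TGACG itself holds a C followed by a G, and the shares over all windows were not matched for G and C content. They therefore do not show how rare 4 cores are among windows this rich in G and C. A match is a run of letters and does not show that a factor binds there.

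**Figure D1:**
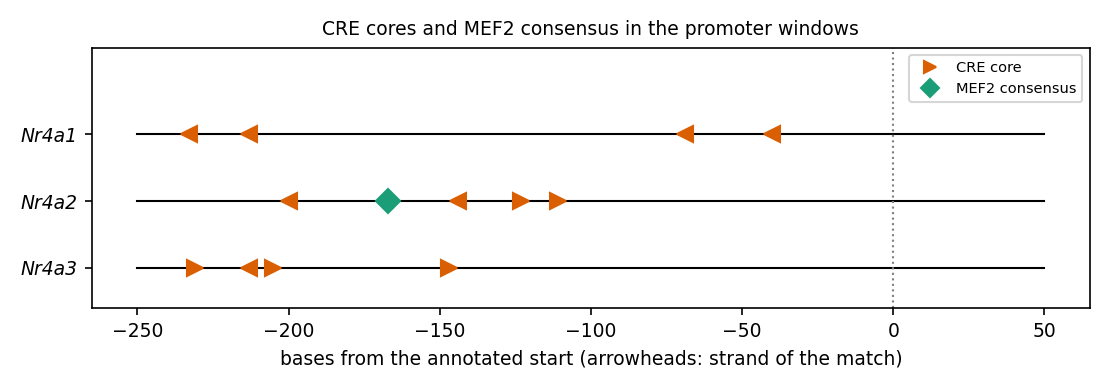
Positions of the CRE core TGACG (arrowheads, pointing along the strand of the match) and of the MEF2 consensus (diamond) in the promoter windows of the 3 Nr4a genes, against the distance in bases from the annotated start (dotted line). Each window holds 4 CRE cores, all before the start used, and Nr4a2 alone holds a MEF2 match. For Nr4a1 and Nr4a3 the start used lies inside the annotated gene span.

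Before the members are described, the libraries were checked against their labels. Levels are in RPKM, which adjusts read numbers for gene length and for how deeply a library was sequenced. Srebf2 was at 0.263 to 1.228 in the VAT KO libraries against 15.583 to 30.532 in VAT WT. In spleen it was at 1.593 to 2.59 in KO against 10.506 to 23.195 in WT. Genes that define the sorted cells were present in every library, with Cd3e at 141 to 215 RPKM, Cd4 at 116 to 149 and Foxp3 at 6.97 to 16.4. Correlation across genes between replicates was 0.968 to 0.974 in VAT and 0.971 in spleen KO, against 0.932 between the 2 spleen WT libraries. Of the markers of cells that the sort should leave out, 5 of 16 myeloid, 6 of 12 B cell, 3 of 9 CD8, NK and gamma-delta T cell, 1 of 13 stromal, endothelial and adipocyte and 0 of 9 neutrophil genes were among the genes kept in the table. Csf1r, a receptor of macrophages, was low throughout, with spleen libraries between 0.116 and 0.828 RPKM and VAT libraries between 0.034 and 0.144. Summed over the 5 myeloid genes, VAT libraries had 45.1 to 120 RPKM and spleen libraries 245 to 311. Over the 6 B cell genes the sums were 19.9 to 96.6 and 30.9 to 49.8, and over the 3 CD8 and NK cell genes 74.7 to 191 and 35.0 to 61.4. The myeloid sums came mostly from Cd74 and the protease Ctss. No VAT library passed 44.927 RPKM for Ctss, and no spleen library fell below 175.818. Cd74 overlapped between the tissues. Csf1r, Adgre1 and Fcer1g each stayed at or below 3.953 RPKM in every library. The myeloid sums therefore do not measure how many myeloid cells were present.

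Nr4a1 was by far the most abundant member in every library. It stood at 767.411, 571.967 and 762.208 RPKM in VAT WT replicates 1, 2 and 3, and at 643.143, 591.426 and 585.699 RPKM in VAT KO replicates 1, 2 and 3. In spleen it stood at 15.121 and 30.335 RPKM in WT replicates 2 and 3 and at 23.425 and 31.565 RPKM in KO replicates 2 and 3. Every adipose library was thus far above every splenic one, and the genotypes overlapped within each tissue. Ranked among the 10992 genes of its own library, Nr4a1 held places 7 to 16 in VAT and places 1375 to 3059 in spleen.

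Nr4a2 was a low to moderate transcript in adipose Tregs and near the bottom of the table in splenic ones. Its level was 9.771, 8.754 and 19.879 RPKM in VAT WT replicates 1, 2 and 3 and 27.744, 19.729 and 23.868 RPKM in VAT KO. In spleen it was 1.143 and 0.475 RPKM in WT and 0.039 and 1.061 RPKM in KO. The tissues did not overlap. Between the adipose genotypes the overlap came down to VAT WT replicate 3, which lay just above VAT KO replicate 2, while the other VAT WT libraries lay well below.

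Nr4a3 was likewise seen mainly in adipose Tregs. It stood at 10.812, 4.319 and 11.913 RPKM in VAT WT and at 11.022, 9.329 and 9.558 RPKM in VAT KO. The spleen libraries had 0.02 and 0.317 RPKM in WT and 0.555 and 0.24 RPKM in KO, so that no splenic library reached 1 RPKM. VAT WT replicate 2 was low for this gene, at less than 5 RPKM.

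**Figure D2:**
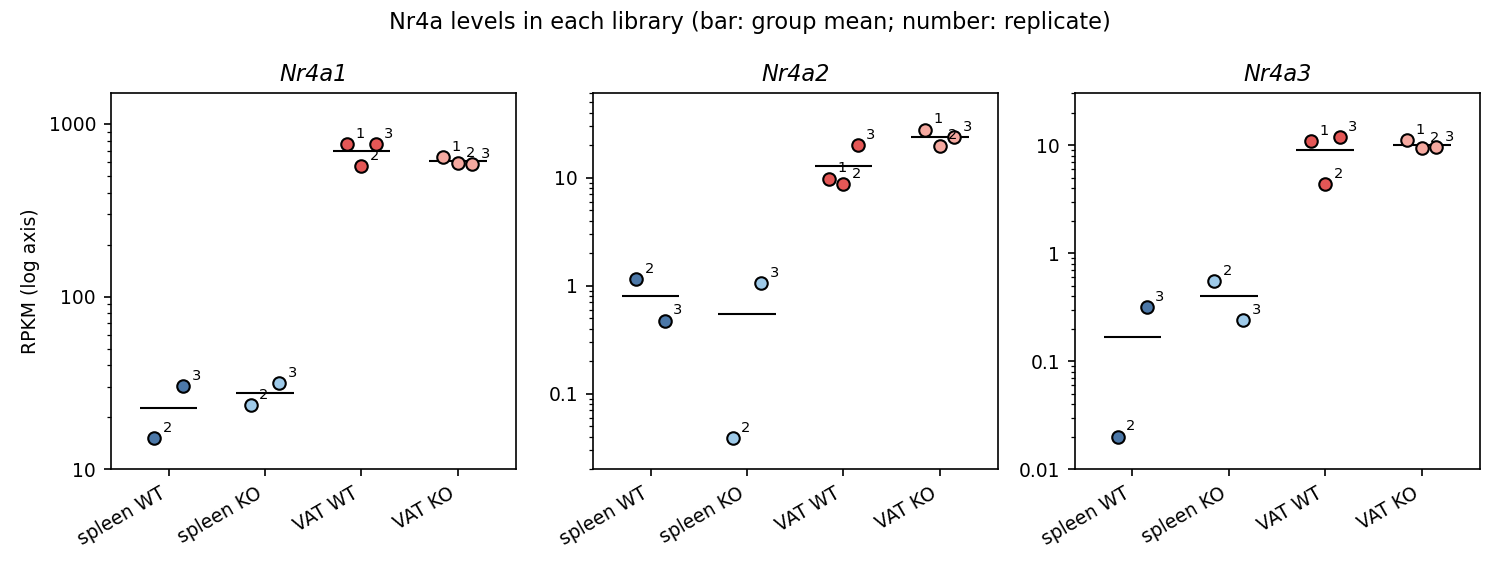
RPKM of Nr4a1, Nr4a2 and Nr4a3 on log axes in the 4 groups; each point is a library with its replicate number, and the bar is the group mean. All 6 VAT libraries lie above all 4 spleen libraries for each gene, and Nr4a1 reaches 572 to 767 RPKM in adipose Tregs but 15.1 to 31.6 in splenic ones.

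The comparison of VAT WT with spleen WT asked how adipose and splenic Tregs with intact Srebf2 differ in the family. All 3 members were higher in VAT. Nr4a1 averaged 700.5 ± 111 RPKM in VAT WT (SD, n = 3) and 22.7 ± 10.8 in spleen WT (SD, n = 2), a ratio of means of 30.8. On the scale of log2(RPKM + 1) used for testing, which understates changes of low genes, it rose by 4.95 ± 0.24 (SE; limma adjusted p = 2.19e-08). Nr4a2 averaged 12.8 ± 6.15 against 0.809 ± 0.472 RPKM, a ratio of 15.8, and rose by 2.87 ± 0.36 (adjusted p = 9.11e-05). Nr4a3 averaged 9.02 ± 4.10 against 0.168 ± 0.210 RPKM, a ratio of 53.5, and rose by 3.01 ± 0.34 (adjusted p = 3.63e-05). Of 10429 genes tested, 26.1% were called at a limma adjusted p under 0.05, 10.7% as higher in VAT WT and 15.4% as lower. Groups that did not overlap, with VAT higher, were found for 18.1% of the tested genes. Among markers of other cells, Nkg7, a granule protein of cytotoxic cells, rose by 1.49 (limma adjusted p = 0.0112), while the other CD8 and NK cell markers measured, Cd8b1 and Cd8a, stood at -0.47 and -0.21 and did not pass. The myeloid protease Ctss fell by 3.89 (adjusted p = 6.56e-07) and the macrophage marker Adgre1 by 1.02 (adjusted p = 0.0137). Pecam1, the only 1 of 13 stromal, endothelial and adipocyte markers measured, fell by 1.85 (adjusted p = 0.000878). What part these markers had in the Nr4a levels was not tested. In bulk RNA, a higher share of cells that express a gene cannot be told apart from more RNA per cell.

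The same tissue comparison in KO Tregs took its means from other libraries, and the 3 members were higher in VAT there too. The spread of each gene was estimated by limma over all 4 groups, so the SE and p-values of the 2 tissue comparisons are not independent. Nr4a1 averaged 607 ± 31.6 RPKM in VAT KO (SD, n = 3) and 27.5 ± 5.76 in spleen KO (SD, n = 2), a ratio of 22.1, with a rise of 4.43 ± 0.24 on the log2 scale (limma adjusted p = 7.32e-08). Nr4a2 averaged 23.8 ± 4.01 against 0.55 ± 0.723 RPKM and rose by 4.07 ± 0.36 (adjusted p = 7.13e-06). For Nr4a3 the means were 9.97 ± 0.919 and 0.398 ± 0.223 RPKM, and the rise was 2.98 ± 0.34 (adjusted p = 6.28e-05). In this comparison 14.6% of tested genes were called, 7.65% as higher in VAT and 6.94% as lower, and 20% had groups that did not overlap with VAT higher. Nkg7 rose by 2.53 here (limma adjusted p = 0.00052), with Cd8b1 at -0.77 and Cd8a at -0.11, neither called. Ctss fell by 2.42 (adjusted p = 6.72e-05), the B cell surface protein Cd22 by 2.07 (adjusted p = 0.0305) and Pecam1 by 1.25 (adjusted p = 0.0157). Of the 6 B cell markers tested Cd22 alone was called, with 4 below 0, 2 above 0 and a median of -0.20. The part of these markers in the Nr4a levels was not tested.

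Averaged over both genotypes, the tissue difference was 4.69 ± 0.17 for Nr4a1, 3.47 ± 0.25 for Nr4a2 and 2.99 ± 0.24 for Nr4a3 on the log2 scale (limma adjusted p = 6.07e-10, 4.59e-07 and 1.01e-06), where 35.3% of tested genes were called and 13.9% were higher in VAT. Nr4a1 had the 24th largest rise of all tested genes in this comparison. The exact permutation test over libraries, two-sided and with tissue labels exchanged within genotype, gave p = 0.01 for each member, the smallest that its 100 splits allow, or 0.06 after Benjamini-Hochberg adjustment over the 18 permutation tests run. Within a genotype, the exact permutation test of 3 against 2 libraries gave p = 0.1 for each member, the smallest it allows.

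The order of the members by size of change depended on the scale. With a pseudocount of 0.1 the rise in VAT WT over spleen WT was 5.01 for Nr4a1, 3.83 for Nr4a2 and 5.22 for Nr4a3. With a pseudocount of 5 the values for Nr4a2 and Nr4a3 were 1.57 and 1.39. Nr4a3 passed the filter on low values through VAT libraries alone, and its spleen values lie near the lower end of what the table resolves, so its fold rests on small denominators. Every one of these alternatives kept all 3 rises past the threshold.

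**Figure D3:**
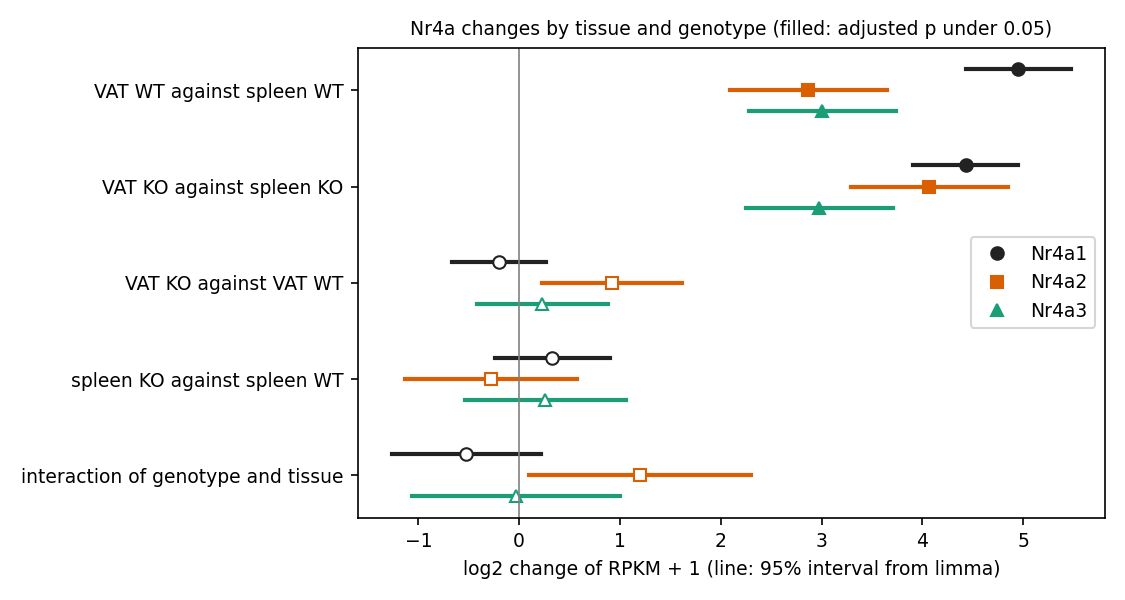
Log2 change of RPKM + 1 for each Nr4a gene in 5 comparisons, with 95% intervals from limma; filled symbols have an adjusted p under 0.05. The 6 tissue differences lie between 2.87 and 4.95, and none of the genotype or interaction values is filled.

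Loss of Srebf2 in adipose Tregs was asked about by comparing VAT KO with VAT WT. None of the 3 members passed the threshold, in a comparison where 44 genes, 0.422% of those tested, were called. Nr4a1 in VAT KO stood at 86.6% of its VAT WT mean, a log2 change of -0.20 ± 0.21 with a 95% interval of -0.66 to 0.27 (limma adjusted p = 0.976). Nr4a2 had the largest value, 1.86 times the VAT WT mean and a log2 change of 0.92 ± 0.32 (95% interval 0.22 to 1.61; unadjusted p = 0.0137, adjusted p = 0.444). Nr4a3 stood at 0.23 ± 0.30 (95% interval -0.42 to 0.88, adjusted p = 0.989). These intervals leave room for a fall of Nr4a1 by up to 0.66 and a rise of Nr4a2 by up to 1.61 on the log2 scale. Two-sided exact permutation tests gave p = 0.4, 0.2 and 0.9 for Nr4a1, Nr4a2 and Nr4a3, where 3 against 3 libraries cannot go below 0.1.

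Single VAT WT libraries weighed on these differences, replicate 2 among them. Replicate 2 held the lowest level of each member among VAT WT libraries, and without it Nr4a3 turned to -0.17 and Nr4a2 stood at 0.71. Without VAT WT replicate 3, the highest of its group for Nr4a2, that difference was 1.26 (limma adjusted p = 0.2). VAT WT replicate 2 had the lowest summed RPKM of 29 immediate early and stress genes in VAT WT (10236.84 against 11549.96 and 11050.48). It also had the highest B cell, myeloid, and CD8, NK and gamma-delta T cell marker sums in VAT WT, and the lowest level of Pecam1, the 1 stromal and endothelial marker measured. Its B cell marker sum was 96.56 RPKM, and replicates 1 and 3 had 39.54 and 20.71. Its CD8, NK and gamma-delta T cell marker sum was 190.61 RPKM, and replicates 1 and 3 had 82.86 and 74.72. Nkg7 made up 178.53 RPKM of that sum in replicate 2. Cd8b1 and Cd8a were higher in replicate 3 (17.016 and 1.335 RPKM) than in replicate 2 (10.854 and 1.228). Of the myeloid sum of 120.44 RPKM in replicate 2, Cd74 made up 105.221. Ctss and Adgre1 were also highest there, but Fcer1g was highest in replicate 1 and Csf1r in replicate 3. The part of these sums and markers in the Nr4a levels of replicate 2 was not tested.

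In spleen the deletion comparison showed no called member, and limma called 0 of 10429 genes there (873 at an unadjusted p under 0.05). Nr4a1 differed by 0.33 ± 0.26 on the log2 scale (95% interval -0.24 to 0.90, adjusted p = 0.704), Nr4a2 by -0.28 ± 0.39 (-1.13 to 0.57, adjusted p = 0.821) and Nr4a3 by 0.26 ± 0.37 (-0.54 to 1.06, adjusted p = 0.822). Each gave a two-sided exact permutation p of 0.667, and 2 against 2 libraries cannot go below 0.333. The Nr4a1 value turned on the spleen WT libraries, which stood at 15.121 and 30.335 RPKM. Without spleen WT replicate 2 it was -0.15 (adjusted p = 1), and without spleen WT replicate 3 it was 0.81 (adjusted p = 0.0256), each time leaving 1 spleen WT library that is assumed to vary like the other groups.

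Whether the deletion acted differently in the 2 tissues was tested by the interaction. It was -0.52 ± 0.34 for Nr4a1 (limma adjusted p = 0.788), 1.2 ± 0.51 for Nr4a2 (unadjusted p = 0.0348, adjusted p = 0.686) and -0.03 ± 0.47 for Nr4a3 (adjusted p = 0.991), and 0 of 10429 genes were called (738 at an unadjusted p under 0.05). Without spleen WT replicate 3, the Nr4a1 interaction was -1.002 (adjusted p = 0.0414), and 514 genes were called. Averaged over tissues, KO differed from WT by 0.07 ± 0.17 for Nr4a1, 0.32 ± 0.25 for Nr4a2 and 0.25 ± 0.24 for Nr4a3 (adjusted p = 0.923, 0.714 and 0.759), where 0.0767% of tested genes were called. The exact permutation test with genotype labels exchanged within tissue gave p = 0.883, 0.433 and 0.35.

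The members' shares of the family's summed RPKM, which compare levels per gene length, were computed for each library. Nr4a1 held 96.0% to 97.8% in VAT WT, 94.3% to 95.3% in VAT KO and 92.9% to 97.5% in spleen. Nr4a2 held 1.24%, 1.496% and 2.504% in VAT WT replicates 1, 2 and 3 and 4.07%, 3.18% and 3.86% in VAT KO, so that on this measure the adipose genotypes did not overlap, although they did for its level. No share over all genes exists for this ratio, and by level 8.97% of tested genes did not overlap with KO higher. Its spleen shares ran from 0.162% to 7.02% and spanned those of both adipose groups. Nr4a3 held 0.738% to 1.5% in VAT WT and 1.504% to 1.62% in VAT KO. These shares were looked at after the levels were known and carry no test. The summed family made up 0.296% to 0.418% of all RPKM in VAT and 0.00773% to 0.0172% in spleen.

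**Figure D4:**
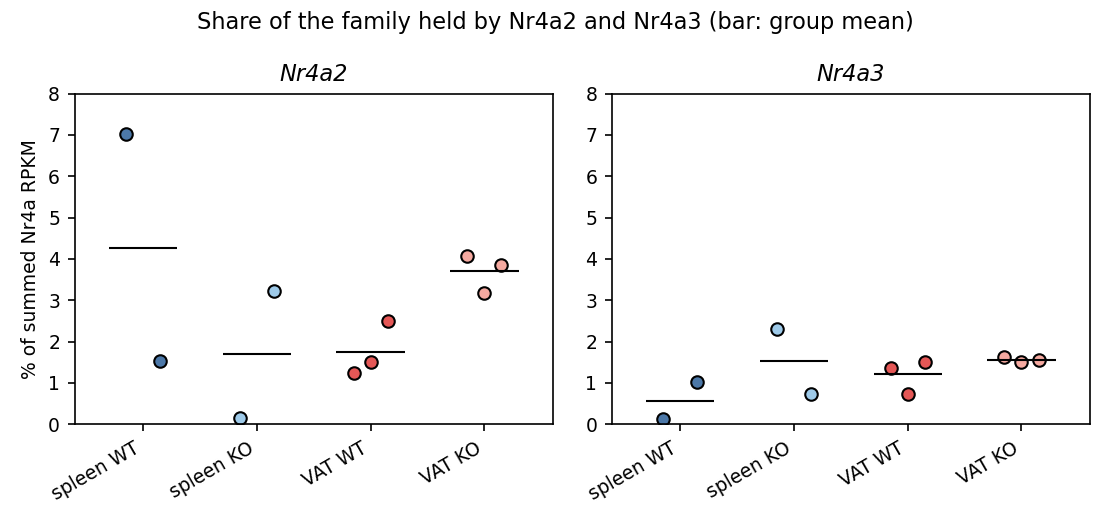
Share of the summed Nr4a RPKM held by Nr4a2 (left) and Nr4a3 (right) in each library, in percent; bars are group means. Nr4a2 holds 3.18% to 4.07% in VAT KO against 1.24% to 2.50% in VAT WT, while the 4 spleen libraries scatter between 0.162% and 7.02%.

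Genes of the signals that induce Nr4a transcription were set beside the members. These lists and those below were chosen with earlier results of these data known, so their counts are a description. Of 29 immediate early and stress genes, 24 rose in VAT WT over spleen WT and 3 fell, against 10.7% and 15.4% of all tested genes, with a median log2 change of 3.46 against -0.12 over all tested genes. Dusp1, a phosphatase that switches off MAP kinases, rose by 4.70 ± 0.14 (limma adjusted p = 3.99e-10), and Atf3, a stress-induced transcription factor, rose by 6.68 ± 0.25 (adjusted p = 2.41e-09). Ppp1r15a, which restarts translation after stress, rose by 4.85, and Gadd45b, a growth arrest protein, by 5.18. In KO libraries 24 of the 29 rose in VAT and 1 fell, with a median of 3.22 against -0.09. Those that fell in WT, named after their values were seen, were Dusp2 (-0.57), Btg1 (-0.47) and Klf2 (-0.44), with adjusted p = 0.021, 0.0345 and 0.0403. These small falls lost their call in 4, 7 and 10 of the 19 alternatives. In each VAT library the 29 genes together reached at least 9494 RPKM, and in each spleen library at most 2136. The sources used here do not describe how either tissue was taken apart, and handling cannot be told apart from tissue of origin in this design.

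Of 24 genes induced by the T cell receptor, 12 rose in VAT WT and 3 fell, against 10.7% and 15.4% over all tested genes, with a median log2 change of 0.56. In KO libraries 12 rose and 1, Cd83, fell, against 7.65% and 6.94%, with a median of 0.86. The fall of Cd83 in KO lost its call at a pseudocount of 0.1 and without spleen KO replicate 2, spleen KO replicate 3 or VAT KO replicate 2. Among those that rose in VAT WT were Nfkbid, a nuclear inhibitor of NF-kB (4.13 ± 0.20, limma adjusted p = 2.2e-08), Cd69, an early activation marker that keeps cells in tissue (2.13 ± 0.13, adjusted p = 2.26e-07), Egr1, an immediate early factor (3.33), and Ctla4, an inhibitory receptor of Tregs (1.76). The genes that fell, named after their values were seen, were Cd83, a surface protein of activated lymphocytes (-2.81, adjusted p = 0.000348), Tnfrsf9, the receptor 4-1BB (-0.80, adjusted p = 0.00434), and Egr2, a factor induced through calcineurin and NFAT (-1.72 ± 0.50, adjusted p = 0.0248). Egr2 averaged 4.49 RPKM in VAT WT and 16.8 in spleen WT, opposite to Egr1, which averaged 164 and 15.3. The Egr2 call was lost without any of 3 libraries. Its adjusted p was 0.111 when spleen WT replicate 3 was left out, and 0.0685 and 0.0735 without replicates 1 and 2 of VAT WT. Between adipose genotypes none of these 24 genes passed, with a median of 0.02, and none of the 29 immediate early and stress genes passed, with a median of -0.17, against 0.02 over all tested genes.

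**Figure D5:**
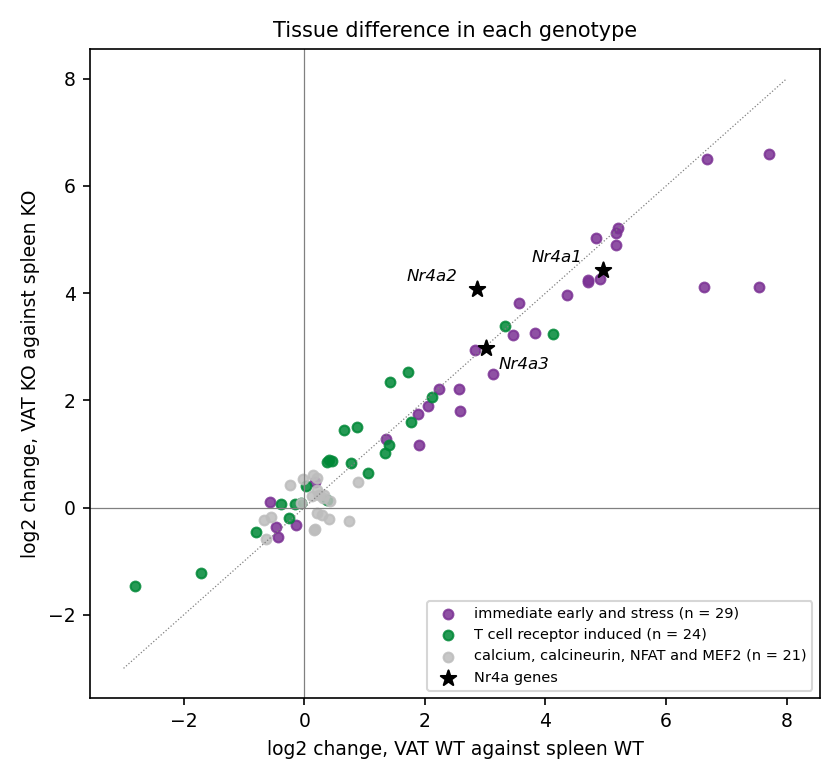
Log2 change of VAT against spleen in WT libraries (x axis) and in KO libraries (y axis) for each tested gene of 3 lists and for the Nr4a genes (stars); the dotted line marks equal change. The medians in WT and KO are 3.46 and 3.22 for the immediate early and stress genes and 0.56 and 0.86 for the T cell receptor list. The highest values of the T cell receptor list are 4.13 and 3.39. Nr4a1 in both genotypes and Nr4a2 in KO (4.07) lie above the medians of both lists. Nr4a2 (2.87) and Nr4a3 (3.01) in WT and Nr4a3 (2.98) in KO lie between the 2 medians. The lists were chosen with earlier results of these data known.

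Genes that act upstream of the Nr4a genes were listed as well. Of 21 tested genes of calcium entry, calcineurin, NFAT and MEF2, limma called 0 in KO libraries, where it called 14.6% of all tested genes. In VAT WT 1 rose and 3 fell, against 10.7% and 15.4% of all tested genes, with a median of 0.21. Without spleen WT replicate 3, 7 rose and 1 fell. The gene that rose was Stim1, the calcium sensor of the endoplasmic reticulum (0.89 ± 0.18, limma adjusted p = 0.00332), while Orai1, the calcium channel that Stim1 opens, fell by 0.55 (adjusted p = 0.0371). Hdac7, which represses Nr4a1 in mouse thymocytes, fell by 0.64 (adjusted p = 0.0294) in WT libraries and stood at -0.60 (adjusted p = 0.0576) in KO libraries. The calls of Orai1 and Hdac7 were lost in 10 and 7 of the 19 alternatives, among them scaling by median ratios, with adjusted p up to 0.121 and 0.0886. Of 20 genes of cyclic AMP and CREB signalling, 5 rose and 3 fell in VAT WT, with a median of 0.25 and the same shares over all genes, and 8 and 3 did so without spleen WT replicate 3, or 3 and 3 without spleen WT replicate 2. Crem, a CREB relative that cyclic AMP induces, rose by 2.71 ± 0.18 (adjusted p = 4.75e-07), and Sik1, a kinase induced by CREB that curbs its co-activators, by 2.78 ± 0.24 (adjusted p = 3.31e-06). Ptger2, a prostaglandin E2 receptor that raises cyclic AMP, fell by 1.84 ± 0.18 (adjusted p = 1.4e-05).

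Ptger2 was also the gene of this list that rose in VAT KO over VAT WT. In VAT it averaged 14.4 ± 1.36 RPKM in KO libraries against 6.86 ± 1.41 in WT libraries (SD, n = 3 each). Spleen averaged 26.9 in WT and 28.4 in KO. The gene rose by 0.99 ± 0.17 (limma adjusted p = 0.0259). In that comparison 0.307% of tested genes were called higher, and the groups did not overlap, with KO higher, for 8.97%. The call was lost when any of 6 libraries was left out. Adjusted p rose to 0.147 or 0.0946 without VAT WT replicate 1 or 3 and to 0.148 or 0.163 without VAT KO replicate 2 or 3. Leaving out spleen KO replicate 2 or 3 gave 0.0571 or 0.056. The myeloid marker Ctss rose as well in VAT KO over VAT WT, by 1.31 ± 0.25 (limma adjusted p = 0.0449). The other myeloid markers tested did not pass, with Cd74 at -0.27, Fcer1g at 0.13 and Adgre1 at 0.01. The part of Ctss in the Ptger2 level was not tested.

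Partners and downstream genes of the receptors were also listed. Of 17 tested retinoid X receptors and other nuclear receptors, 9 rose and 0 fell in VAT WT, with a median of 0.70. Over all tested genes 10.7% rose and 15.4% fell there. In VAT KO over spleen KO 5 of the 17 rose and 0 fell, against 7.65% and 6.94% of all tested genes. Over the alternatives 6 to 9 rose in WT and 3 to 7 in KO, the fewest in WT when spleen WT replicate 2 or VAT WT replicate 3 was left out, and the fewest in KO when either spleen KO library was. Pparg, the receptor that drives the adipose Treg programme, rose by 3.99 ± 0.20 (limma adjusted p = 2.2e-08), and Rora, a receptor of tissue lymphocytes, by 2.69 ± 0.23 (adjusted p = 3.02e-06). The partner Rxra rose by 1.399 ± 0.37 (adjusted p = 0.0153) and stood at 0.54 in KO libraries (adjusted p = 0.373), while Rxrb stood at 0.20 (adjusted p = 0.52). The Rxra call was lost without spleen WT replicate 2 (adjusted p = 0.146) or VAT WT replicate 3 (adjusted p = 0.0607). Both partners were named for their role and not by rank. The list of the NR4A and TOX programme of T cells has 11 genes, of which Pdcd1, Ctla4, Tigit and Tox are also in the T cell receptor list. In VAT WT 5 of the 11 rose and 2 fell, against 10.7% and 15.4% of all tested genes. Tox2, which acts together with NR4A factors in exhausted mouse CD8 T cells, rose by 2.42 ± 0.31 (adjusted p = 0.000114), and Foxp3, a target of NR4A proteins in mouse T cells, by 0.89 ± 0.17 (adjusted p = 0.00265). Lag3, an inhibitory receptor, fell by 1.74 ± 0.27 (adjusted p = 0.000573). In KO libraries 5 of the 11 rose and 0 fell, against 7.65% and 6.94% of all tested genes. Between adipose genotypes none of the 17 nuclear receptors or of the 11 programme genes passed.

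Genes whose pattern was most like that of each member were ranked by Pearson's r of log2(RPKM + 1) over the 10 libraries, among 6627 other genes averaging at least 5 RPKM. Since 6 libraries are VAT and 4 are spleen, such an r mostly measures the tissue difference, and it is given as a description. The genes closest to Nr4a1 were Ltb4r1, Dusp5, Tnfaip3 and Fosl2, each at r = 0.997. For Nr4a2 they were Tgif1 (0.977), Slc38a2 (0.975), Cebpb (0.974) and Ccr8 (0.973), and for Nr4a3 Per1 (0.991), Nfkbiz, Ifrd1 and Cited2 (0.984 each). The members' r with each other was 0.942 for Nr4a1 and Nr4a2, 0.977 for Nr4a1 and Nr4a3, and 0.950 for Nr4a2 and Nr4a3. After group means were subtracted, these fell to 0.144, 0.530 and 0.274 over the same 10 libraries, and the closest genes became Tmem248 (0.980), Cnnm3 (0.975), Mark3 and Fbxl14 (0.973 each) for Nr4a1, Mkln1 (0.931), Vps45 (0.922), Azi2 (0.913) and Vamp2 (0.909) for Nr4a2, and Rarg (0.952), Trib1 and Plekhb2 (0.937 each) and Naif1 (0.935) for Nr4a3. None of the genes named before that step was named after it. Removing 4 group means leaves 6 degrees of freedom, and the 2 libraries of a spleen group then deviate equally in opposite directions. For Nr4a1 the spleen WT libraries, at 15.121 and 30.335 RPKM, lay furthest apart on the log2 scale. The genes named after that step are again the highest of 6627, so their r is a description too.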

How the data were processed

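RNA was purified with a column kit, copied with SMART-seq v4 and tagged with Nextera XT, which keeps no strand, per the labels' protocols. The aligner STAR and the build mm10 come from the submitters' processing notes, while counting, gene models and gene filter are not stated. The deposited values are the authors' RPKM, per the file headers. These are not counts and show no step of 1 read, so depth is unknown and intervals reflect the spread between libraries. RPKM sums per library ran from 185318.6 to 210778.5.

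Of the 11 labelled samples, 10 had a column. Spleen KO replicate 1 was not analysed here, and 1 further column, named as spleen WT replicate 1, which no label matches, was left aside. Whether these names were exchanged was not tested. Gene symbols altered to dates (15) were repaired through their Entrez number.

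Analysis used log2(RPKM + 1) of the 10429 genes reaching 1 RPKM in 2 or more libraries, and limma 3.58.1 in R 4.3.3. The model had 4 group means, no covariate, a trended prior, 6 residual and 6.44 prior degrees of freedom. Tests were two-sided, with Benjamini-Hochberg adjustment over all genes of a comparison and calls under 0.05. The members were also tested by exact permutation. The fit was tested on simulated data. Named genes were the members, Srebf2, Foxp3, up to 4 genes per list by smallest p, and the 4 most like each member. Genes outside this rule are said to be so, or are lineage markers given beside a result. Members and lists were chosen with earlier results of these data known. Promoter sequences are from RefSeq on GRCm38.p6 and matched 3 of 3 members.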

Additional observations from a re-analysis of the deposited data

How the results depend on the processing

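Results were recomputed under 19 alternatives, namely 2 other pseudocounts (0.1, 5), 2 other filters, 2 other scalings, a robust spread, the replicate number as a block, the compared groups by themselves, and 10 fits that each left out a library. All VAT against spleen rises of the 3 members, in WT, in KO and averaged, kept direction and call in each alternative run for them, 19 within a genotype and 18 for the average, which uses all 4 groups. In WT the rise ran from 4.47 to 5.43 (Nr4a1), 1.57 to 3.83 (Nr4a2) and 1.39 to 5.22 (Nr4a3), and in KO from 4.22 to 4.64, 2.37 to 5.88 and 1.47 to 4.41. The replicate block gave 4.89, 2.88 and 2.89 in WT and 4.37, 4.08 and 2.86 in KO, and 0.919 (adjusted p = 0.504) for Nr4a2 in VAT KO against VAT WT. It changed no member's call. Deviations of same-numbered libraries from their group means had r of -0.147 to 0.184. For spleen and VAT libraries of the same genotype, r was 0.092 and 0.184 in WT and 0.003 and 0.046 in KO. With groups of 2 or 3 libraries, such values cannot decide whether the numbers pair libraries of the same mouse. At a pseudocount of 5, genes called in VAT KO against VAT WT numbered 20 in place of 44, and the Nr4a3 interaction turned to 0.079. At 0.1, limma called 2 genes in the spleen comparison of genotypes and 2 in the interaction, and the averaged KO difference of Nr4a2 turned to -0.05. With the compared groups by themselves, 1749 genes were called between VAT WT and spleen WT in place of 2723. Leaving out a library moved the genes called from 2 to 59 (VAT KO against VAT WT), 0 to 1395 (spleen genotypes), 1718 to 3892 (tissues, WT), 747 to 2209 (tissues, KO), 0 to 514 (interaction) and 4 to 769 (genotype averaged). The highest counts for spleen genotypes, the interaction and the averaged genotype all came without spleen WT replicate 3, which leaves 1 spleen WT library. Leaving out a library moved Nr4a3 in VAT KO against VAT WT from -0.174 to 0.465, Nr4a1 in spleen from -0.152 to 0.807, Nr4a2 in spleen from -0.775 to 0.213, the interaction of Nr4a1 from -1.002 to -0.043, that of Nr4a3 from -0.435 to 0.205, and the averaged genotype difference of Nr4a1 from -0.174 to 0.306. The cause was not tested. Depth is unknown, and precision is poorest for Nr4a2 and Nr4a3 in spleen.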
